A study of Mus musculus with 7 samples.

Results

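The gap junction genes *Gja1*, *Gjb2*, *Gjb5* and *Gjb6* were examined in mouse skin papillomas with and without transgenic *Nanog*. They were taken by gene symbol, 4 of the 23122 symbols used, and all 4 passed the minimum of a mean of 0.5 FPKM that left 12299 genes for testing. FPKM is the number of sequenced fragments of a gene scaled to transcript length and to the mapped fragments of the library. RNA was sequenced from papillomas of 4 control (CTR) and 3 transgenic (TG) mice, each papilloma from a different mouse, so the mouse is the replicate. All mice were of C57Bl/6 background, were age-matched adults at the start, and had papillomas induced with DMBA, a carcinogen applied to the back skin, followed by repeated TPA, a phorbol ester that promotes tumor growth. Papillomas were collected when the protocol ended or when a mouse reached the humane endpoint. The labels do not give the time for each papilloma, so it may differ between the groups. Both groups carried the tetO-Nanog transgene, placed at the *Col1a1* locus, and drank doxycycline (DOX, 2 mg/ml) throughout. Only TG mice carried the K5-rtTA transactivator, which switches the transgene on in keratinocytes that use the keratin 5 promoter, that is, mainly in the basal layer. The question was which transcripts differed between papillomas with and without induced *Nanog*.

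Connexins are membrane proteins that assemble in rings to form hemichannels, and the docking of hemichannels from neighboring cells builds the gap junctions through which ions and small metabolites pass. Skin keratinocytes make several connexins in patterns that change with the layer of the epidermis. *Gja1* (connexin43) is the most widespread of them, *Gjb2* (connexin26) and *Gjb6* (connexin30) are scarce in resting interfollicular epidermis and rise in wounded or hyperproliferative epidermis, and *Gjb5* (connexin31.1) belongs to the differentiating layers. Human mutations in the *Gjb2* and *Gjb6* counterparts cause deafness and disorders of keratinization. Phorbol esters such as TPA are a classical means of closing gap junctions in cultured cells.

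The genes lie at 3 places in the genome (GRCm38, 1-based), and each has its whole coding sequence in its last exon. *Gja1* is on chromosome 10, from 56377300 to 56390419 on the plus strand, and its coding sequence of 382 codons is in exon 2. *Gjb2* (chromosome 14, 57098602 to 57104702, minus strand, 226 codons in exon 2) and *Gjb6* (chromosome 14, 57123303 to 57133577, minus strand, 261 codons in exon 3) are neighbors with 18600 bases between them. *Gjb5* (chromosome 4, 127354809 to 127358164, minus strand, 271 codons in exon 2) lies apart from both. The GENCODE annotation had 0 genes overlapping any of the 4. The connexins are related in sequence. Windows of 40 bases, the length of a read, were compared between each of the 4 transcripts and those of 19 other connexin genes. Of these windows 0 were shared, so a read matching any of the 4 without mismatch matched no other connexin transcript. The authors' mapping allowed mismatches, which this comparison does not cover.

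The 250 bases before each transcription start are shown because the 4 genes are compared throughout and differ in base composition and motifs here. The sequences are those of RefSeq (GRCm38.p6), written in the direction of transcription, at chr10:56377050-56377299 (plus strand) for *Gja1*, chr14:57104703-57104952 (minus strand) for *Gjb2*, chr4:127358165-127358414 (minus strand) for *Gjb5* and chr14:57133612-57133861 (minus strand) for *Gjb6*. For *Gjb6* the RefSeq start lies slightly upstream of the GENCODE gene boundary given above. Capitals mark matches, on either strand, to any of 5 motifs searched, which were the AP-1 motif TGANTCA, the GC box GGGCGG, the TATA box with the letters TATAAA, the E2 box CAGGTG and the homeodomain core TAATGG.
Gja1: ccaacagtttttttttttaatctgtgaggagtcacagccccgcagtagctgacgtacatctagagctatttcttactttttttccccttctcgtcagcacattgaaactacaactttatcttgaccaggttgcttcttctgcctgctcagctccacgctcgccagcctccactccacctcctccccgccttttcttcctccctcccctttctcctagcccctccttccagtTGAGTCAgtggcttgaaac
Gjb2: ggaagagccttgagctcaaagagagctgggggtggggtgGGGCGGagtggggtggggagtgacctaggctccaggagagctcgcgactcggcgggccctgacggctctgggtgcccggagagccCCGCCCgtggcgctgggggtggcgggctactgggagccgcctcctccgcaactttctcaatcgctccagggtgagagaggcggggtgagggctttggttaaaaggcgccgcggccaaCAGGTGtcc
Gjb5: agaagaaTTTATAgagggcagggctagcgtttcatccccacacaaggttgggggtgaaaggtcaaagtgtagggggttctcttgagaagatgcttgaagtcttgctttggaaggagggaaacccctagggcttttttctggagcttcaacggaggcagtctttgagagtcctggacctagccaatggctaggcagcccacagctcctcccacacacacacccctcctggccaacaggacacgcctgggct
Gjb6: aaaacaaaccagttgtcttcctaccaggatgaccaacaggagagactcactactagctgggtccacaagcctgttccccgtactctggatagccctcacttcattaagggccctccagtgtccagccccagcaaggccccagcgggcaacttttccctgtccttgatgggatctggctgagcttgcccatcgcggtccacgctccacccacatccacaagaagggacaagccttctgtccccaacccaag
*Gja1* had an AP-1 match between positions -19 and -13 from its start, a motif found in 6.75% of 32851 mouse promoters of the same length. *Gjb2* had GC boxes at -211 to -206 and at -126 to -121, the latter on the other strand, and an E2 box at -9 to -4. GC boxes were present in 32.7% and E2 boxes in 17.2% of the promoters. *Gjb5* had a TATA box match only at -243 to -238 on the other strand (12.4% of promoters), and *Gjb6* had a match to none of the 5. TAATGG, found in 6.57% of promoters, matched in none of the 4 windows. GC content was 69.2% in the *Gjb2* window, 56.8% in *Gjb6*, 54.4% in *Gjb5* and 50% in *Gja1*, against a median of 52.4% over all promoters. These matches are letters in a window and do not show binding.

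*Nanog* itself followed the labels. Its FPKM was 2.70, 2.84, 12.7 and 3.34 in CTR 1 to 4 and 36.9, 57.4 and 66.9 in TG 1 to 3, so that the groups did not overlap, although CTR 3 stood above the other CTR papillomas. The log2 difference of *Nanog*, TG minus CTR, was 3.45, a 10.9-fold higher level (unadjusted p = 5.82e-05, adjusted p = 0.400 from limma). No tested gene had a smaller adjusted p, and yet *Nanog* did not pass the adjusted threshold. The adjusted test thus did not call even the induced gene, so a failure to pass does not show equal levels. Papilloma TG 3 stood apart from the rest in ways that touch every comparison below. Its median FPKM over all genes was 1.04 against 0.481 to 0.596 in the other papillomas, its 6 skeletal muscle markers summed to 581.2 FPKM against at most 4.67, and its 6 fibroblast markers summed to 677.9 FPKM against 73.5 to 128.6. The 6 suprabasal keratinocyte markers summed to 4055 FPKM in TG 3 and to 6883 to 11497 FPKM in the others. Keratinocyte identity was nevertheless clear in each papilloma, with *Krt14* (a basal layer keratin) between 4717 and 10937 FPKM. Read numbers inferred from the Cufflinks intervals were between 10077008 and 10672850 in 5 papillomas, and higher in CTR 3 (15623173) and TG 1 (15711400). In bulk tissue of this kind, fewer cells of a type and less RNA per cell cannot be told apart.

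The 4 genes made up nearly all connexin RNA in the papillomas, and *Gjb2* alone made up most of it. Summed over 20 listed connexin genes, FPKM was 897.6, 401.2, 633.0 and 863.3 in CTR 1 to 4 and 1242, 1048 and 656.3 in TG 1 to 3. TG 1 and TG 2 had the highest sums and TG 3 lay within the CTR range. The 4 genes accounted for 94.9% to 98.2% of the sum in each papilloma. The share of *Gjb2* was 72.8% ± 6.26 (SD, n = 4) in CTR and 69.7% ± 4.58 (SD, n = 3) in TG papillomas. *Gja1* took 13.0% ± 4.26 in CTR and 12.3% ± 1.52 in TG, and *Gjb5* took 0.683% ± 0.432 and 0.727% ± 0.218. *Gjb6* took 10.2% ± 1.01 of connexin FPKM in CTR and 13.6% ± 3.52 in TG, that is, 14.6% for TG 1, 16.4% for TG 2 and 9.62% for TG 3. *Gjb2* thus dominated in all papillomas, while the share of *Gja1* ran from 10.5% in CTR 3 to 19.3% in CTR 2 and that of *Gjb5* from 0.191% in CTR 1 to 1.24% in CTR 2. The difference in the *Gjb6* share lay within the spread of the TG papillomas.

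**Figure D1:**
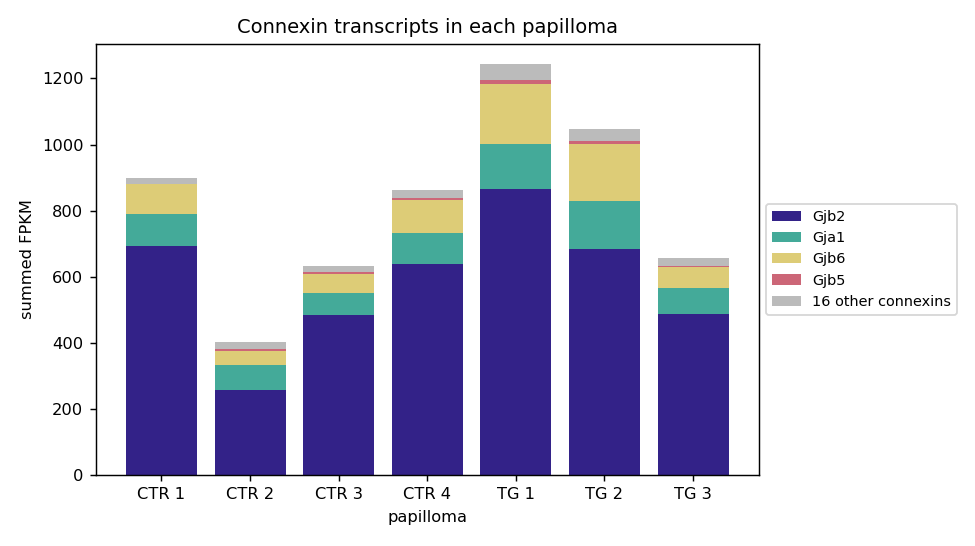
Stacked bars give the summed FPKM of 20 connexin genes in each papilloma (x axis: papilloma; y axis: summed FPKM), split into *Gjb2*, *Gja1*, *Gjb6*, *Gjb5* and the 16 others. *Gjb2* fills most of every bar, and the bars run from 401.2 in CTR 2 to 1242 in TG 1.

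*Gjb2* had the highest and *Gjb5* the lowest level in every papilloma. Because FPKM is per length, 2 genes can be set side by side in the same papilloma, and each of the 6 pairs was compared over the 7 papillomas with a 2-sided exact sign-flip permutation test on log2(FPKM + 0.5), adjusted over the 6 pairs by the Benjamini-Hochberg method. *Gjb2* was higher than each of the other genes in 7 of 7 papillomas, 5.72-fold above *Gja1*, 6.22-fold above *Gjb6* and 103.0-fold above *Gjb5* on average. *Gja1* was 18.0-fold and *Gjb6* 16.5-fold above *Gjb5*, again in 7 of 7 papillomas. Each of these 5 pairs had an exact permutation p = 0.0156, the smallest that 7 papillomas allow, and an adjusted exact permutation p of 0.01875. *Gja1* and *Gjb6* were the only neighbors in this order that did not differ beyond their spread: *Gja1* was higher in 4 of 7 papillomas, by 1.09-fold on average, with log2 ratios from -0.41 to 0.86 (exact permutation p = 0.531). Among all genes of a papilloma, *Gjb2* ranked between 74 and 207 from the top, while *Gjb5* reached only percentiles 41.7 to 77.1 of the detected genes.

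*Gjb2*, whose connexin26 forms channels on its own or together with connexin30, was the most abundant of the 4 and had the smallest difference between the groups. Its FPKM was 692.8, 255.6, 485.0 and 637.0 in CTR 1 to 4 and 865.6, 682.6 and 487.6 in TG 1 to 3. TG 1 was the highest papilloma, CTR 2 the lowest, and the other TG papillomas lay among the CTR values. The means were 517.6 ± 195.5 (SD, n = 4) in CTR and 678.6 ± 189.0 (SD, n = 3) in TG papillomas. The log2 difference, TG minus CTR, was 0.45 (SE 0.37, 95% interval -0.39 to 1.29, adjusted p = 0.866 from limma), and the exact permutation p was 0.400. The interval on the linear scale runs from 0.763-fold to 2.44-fold, which covers equal levels and a 2-fold higher level alike. The difference was 0.14 without CTR 2 and 0.25 without TG 1. The estimates rest on 11440 to 48612 inferred reads a papilloma, so counting error was small beside the spread between mice.

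*Gjb6*, the neighbor of *Gjb2* and the gene of connexin30, had the largest difference of the 4. Its FPKM was 89.3, 42.5, 57.0 and 98.5 in CTR 1 to 4 and 181.7, 172.0 and 63.2 in TG 1 to 3. TG 1 and TG 2 were each above every CTR papilloma, and TG 3 fell among the CTR values, between CTR 3 and CTR 1. The means were 71.8 ± 26.4 (SD, n = 4) and 138.9 ± 65.8 (SD, n = 3). The log2 difference was 0.88 (SE 0.42, 95% interval -0.08 to 1.84), a 1.84-fold higher level, and did not pass the threshold (unadjusted p = 0.0673 and adjusted p = 0.782 from limma). The exact permutation p was 0.20, where the smallest p that 4 against 3 papillomas allows is 0.0286. Without TG 3 the difference was 1.37, with an unadjusted p of 0.00295 and an adjusted p of 0.172 from limma. In that fit 627 of 11990 tested genes were higher and 522 lower at an unadjusted p under 0.05. The *Gjb6* difference was 0.61 without TG 1, 0.65 without TG 2 and 0.66 without CTR 2 (unadjusted p from limma 0.223, 0.213 and 0.162). Without CTR 4 it was 1.06 (unadjusted p = 0.0445 from limma).

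*Gja1*, which encodes connexin43, varied the least among CTR papillomas, by 1.47-fold from the lowest to the highest. Its FPKM was 97.6, 77.5, 66.4 and 96.1 in CTR 1 to 4 and 136.5, 146.6 and 78.9 in TG 1 to 3. As for *Gjb6*, TG 1 and TG 2 were above every CTR papilloma and TG 3 was inside their range. The means were 84.4 ± 15.1 (SD, n = 4) and 120.7 ± 36.5 (SD, n = 3), with a log2 difference of 0.48 (SE 0.25, 95% interval -0.10 to 1.06, adjusted p = 0.813 from limma) and an exact permutation p of 0.143. Without TG 3 the difference was 0.76 (unadjusted p = 0.00707, adjusted p = 0.243 from limma), and without TG 2 it was 0.31 (unadjusted p = 0.296 from limma). When each TG was set against each CTR papilloma, *Gja1* and *Gjb6* were each higher in TG in 10 of 12 comparisons. *Gjb2* and *Gjb5* were each higher in 9 of 12. These comparisons share papillomas, and their share over all tested genes was not counted.

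*Gjb5*, the gene of connexin31.1 in the differentiating layers, was expressed at a far lower level and varied 3.37-fold among CTR papillomas. Its FPKM was 1.72, 4.99, 3.97 and 5.78 in CTR 1 to 4 and 10.6, 8.89 and 3.12 in TG 1 to 3. TG 1 and TG 2 were again the highest, TG 3 was below all CTR papillomas except CTR 1, and CTR 1 was the lowest. Only 48.0 inferred reads stand behind the value of CTR 1 and 410.0 behind that of TG 1, which gives Cufflinks intervals of 1.22 to 2.21 and 9.60 to 11.7 FPKM that cover counting error only. The means were 4.11 ± 1.76 (SD, n = 4) and 7.55 ± 3.94 (SD, n = 3). The log2 difference was 0.75 (SE 0.46, 95% interval -0.29 to 1.79, adjusted p = 0.827 from limma), with an exact permutation p of 0.286. The difference was 0.43 without CTR 1 and 0.44 without TG 1 (unadjusted p from limma 0.320 and 0.405). It was 1.25 without TG 3 (unadjusted p = 0.0106, adjusted p = 0.289 from limma).

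**Figure D2:**
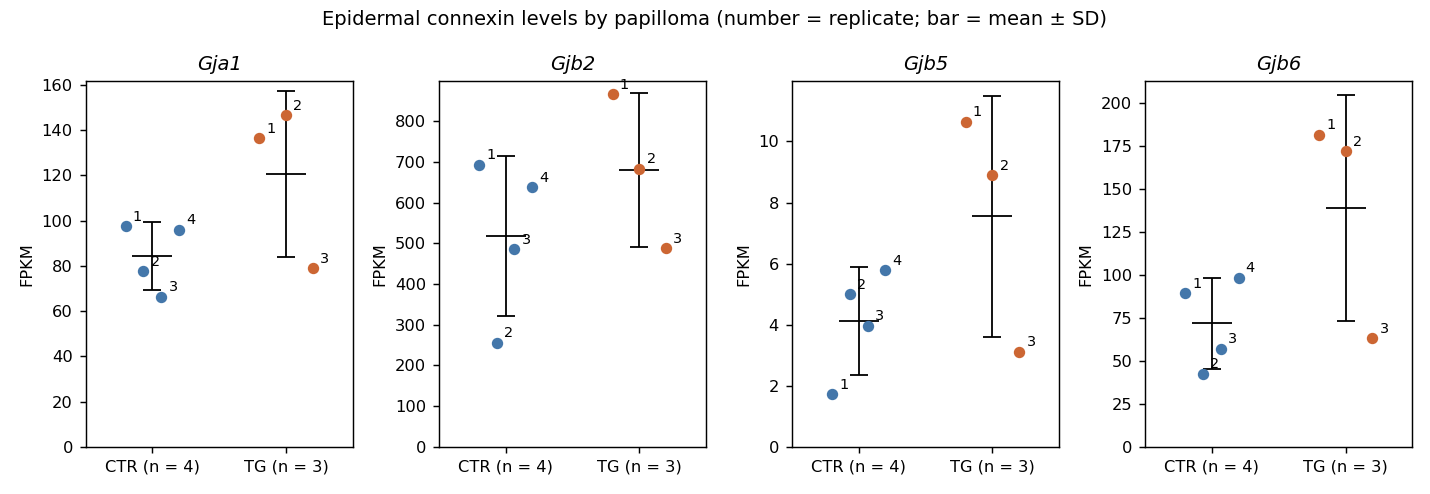
Each point is the FPKM of a papilloma (y axis, from 0), numbered by replicate, for the 4 genes in both groups (x axis, 4 CTR and 3 TG papillomas), and the bars give mean ± SD. TG 1 and TG 2 are above every CTR papilloma for *Gja1*, *Gjb5* and *Gjb6*, while TG 3 lies within the CTR range in all 4 panels.

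In the plot of FPKM by group, TG 3 is set off below the other TG papillomas for *Gja1*, *Gjb5* and *Gjb6*, while the TG values of *Gjb2* are about evenly spaced. By limma with Benjamini-Hochberg adjustment 0 of the 4 genes passed, and 0 of the 4 had an unadjusted p under 0.05, against 0% and 6.82% of all tested genes, or 4.86% when only higher levels in TG are counted. All 4 differences were above 0, as were 60% of those of all tested genes, and their median was 0.62 against 0.06 over all tested genes. None of the 4 had every TG papilloma above every CTR papilloma, which 4.93% of tested genes had, and none had every TG papilloma below, which 2.23% had. With TG 3 left out, the TG papillomas were above every CTR papilloma for 3 of the 4 genes (*Gja1*, *Gjb5* and *Gjb6*) and for 8.94% of tested genes. All 4 had TG 3 within the CTR range, as had 39% of tested genes. For the same 3 genes both held, TG 1 and TG 2 on top and TG 3 within the CTR range, and so it was for 2.98% of tested genes. All of these counts that set TG 3 apart were chosen after the values were seen.

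The part of the marker differences of TG 3 in these values was not tested. Relative to the epithelial genes *Krt5*, *Krt14*, *Trp63*, *Cdh1*, *Jup*, *Dsp* and *Perp*, whose geometric mean was 481.6 FPKM in TG 3 and 392.7 to 506.1 in the others, the 4 differences were 0.33 for *Gja1*, 0.30 for *Gjb2*, 0.62 for *Gjb5* and 0.74 for *Gjb6*. In the 5 papillomas of lower inferred depth, which leave out TG 1, the differences were 0.26, 0.26, 0.46 and 0.53 for the same genes. The deeper pair holds 1 papilloma of each group and allows no test.

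Whether a gene differed more between the groups than another was tested on the ratio of the 2 genes within each papilloma. The ratio of *Gjb2* to *Gjb6* was lower in TG than in CTR papillomas by a log2 difference of -0.43 (exact permutation p = 0.171, adjusted over 6 pairs 0.686). That of *Gja1* to *Gjb6* differed by -0.40 (exact permutation p = 0.229, adjusted 0.686). For the other 4 pairs the exact permutation p lay between 0.714 and 0.943, so that 0 of the 6 ratios passed, with or without adjustment. The values therefore do not show that *Gjb6* differed more between the groups than *Gjb2*, *Gja1* or *Gjb5*, and with 4 against 3 papillomas they do not show that it differed equally.

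Among the other connexins, *Gja4* and *Gjc1* were highest in TG 3, the papilloma in which the 4 genes lay within the CTR range. Of 19 other connexin and pannexin genes, 6 passed the expression minimum, 0 passed the adjusted threshold and 1 (*Gja4*) had an unadjusted p under 0.05 by limma. Among all tested genes 6.82% had such a p. The median log2 difference of the 6 was 0.65, against 0.06 over all tested genes.

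*Gjb1*, the connexin of liver and Schwann cells, was low, with 1.55, 0.526, 0.435 and 0.856 FPKM in CTR 1 to 4 and 4.81, 2.34 and 0.163 in TG 1 to 3, where TG 3 was the lowest papilloma (log2 difference 0.75, adjusted p = 0.870 from limma). *Gja4*, a connexin of the endothelium, had 0.836, 1.33, 1.32 and 1.03 FPKM in CTR 1 to 4 and 3.01, 1.31 and 3.36 in TG 1 to 3. Its log2 difference was 0.85 (unadjusted p = 0.0184, adjusted p = 0.687 from limma). It was thus high in TG 1 and TG 3, the papillomas in which the 5 endothelial markers also had their highest sums, 17.4 and 25.8 FPKM against 6.70 to 12.4 in the other papillomas, and the part of endothelium in this value was not tested. *Gjc1*, a connexin of cardiac conduction tissue and smooth muscle, was 0.372 to 0.574 FPKM in CTR papillomas and 0.633, 0.767 and 1.32 in TG 1 to 3. It was the only tested connexin with every TG papilloma above every CTR papilloma (log2 difference 0.52, adjusted p = 0.784 from limma, exact permutation p = 0.0286, the smallest possible). Of all tested genes 4.93% had this separation. Only 15.7 (CTR 2) to 48.0 (TG 3) inferred reads stand behind these values. The Cufflinks intervals of CTR 1 (0.320 to 0.827 FPKM) and TG 1 (0.401 to 0.865 FPKM) overlap. *Panx1*, which forms single-membrane channels that release ATP, was 5.12 to 8.38 FPKM in CTR and 8.64, 7.78 and 7.07 in TG papillomas (log2 difference 0.22, adjusted p = 0.904 from limma).

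**Figure D3:**
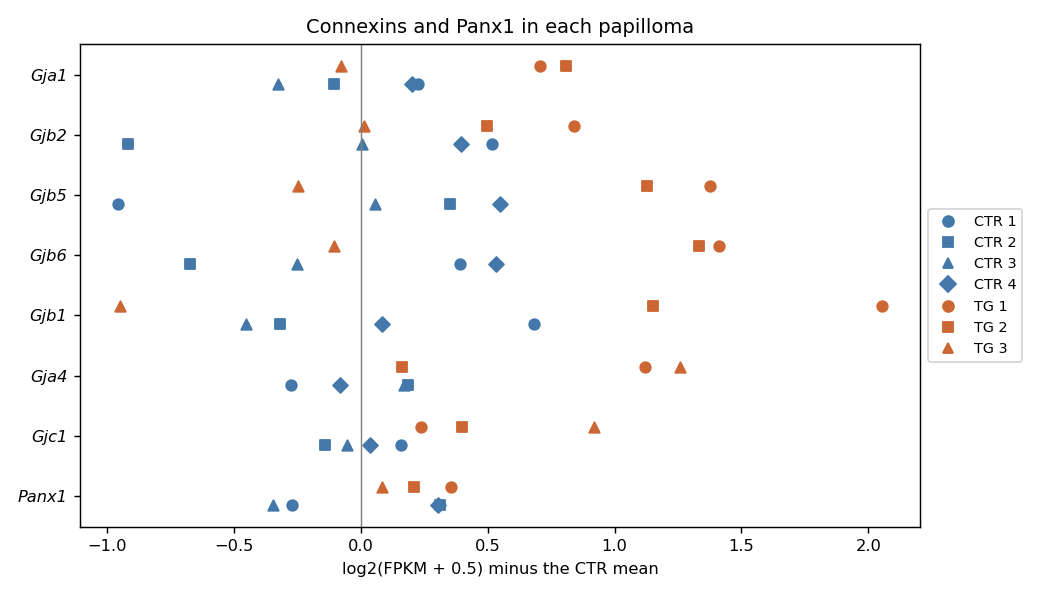
Each point is the log2(FPKM + 0.5) of a papilloma minus the CTR mean of that gene (x axis), for the 4 genes and for *Gjb1*, *Gja4*, *Gjc1* and *Panx1* (y axis), with color for the group and shape for the replicate number. TG 3 lies apart from TG 1 and TG 2 for *Gja1*, *Gjb5*, *Gjb6* and *Gjb1*, but is the highest papilloma for *Gja4* and *Gjc1*.

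**Figure D4:**
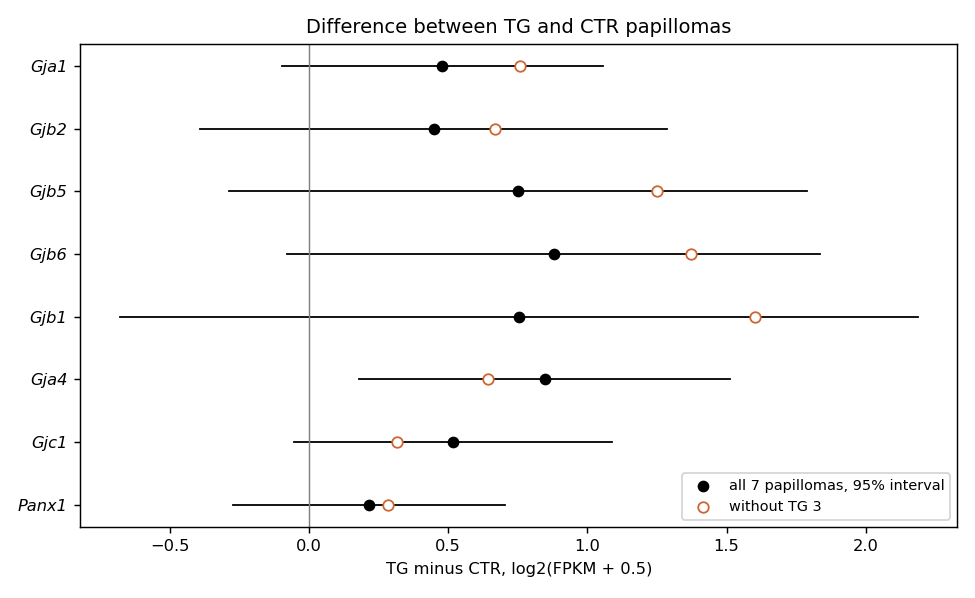
Points are TG minus CTR differences on log2(FPKM + 0.5) (x axis) for the same genes (y axis), filled with 95% intervals from limma for all 7 papillomas and open without TG 3. Every difference is above 0, and the interval of *Gja4* alone leaves out 0, before any adjustment.

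The plot of differences shows that leaving out TG 3 gave a smaller difference for *Gja4* and *Gjc1* and a larger one for the others. Without it the difference was 1.60 for *Gjb1*, 0.64 for *Gja4* and 0.32 for *Gjc1*.

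Connexins work with scaffold proteins, kinases and a turnover machinery, and 22 such partners and regulators were examined, among them the tight junction protein *Tjp1*, which binds the tail of connexin43. All 22 were tested, 0 passed the adjusted threshold and 0 had an unadjusted p under 0.05 by limma. Their median log2 difference was 0.14, against 0.06 over all tested genes, and 17 of the 22 were above 0, as were 60% of all tested genes. The smallest p belonged to *Dbn1*, an actin-binding protein that holds connexin43 at the membrane, with 0.726, 0.466, 0.739 and 1.05 FPKM in CTR 1 to 4 and 1.24, 0.782 and 2.37 in TG 1 to 3 (log2 difference 0.60, adjusted p = 0.810 from limma). *Prkcd*, a protein kinase C that phorbol esters activate, differed by 0.26 (adjusted p = 0.837 from limma), and *Mapk7*, a kinase that phosphorylates connexin43, by 0.25 (adjusted p = 0.839 from limma). In all 3 genes TG 3 was the highest papilloma, unlike in the 4 connexins.

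Markers of the epidermal layers were read beside the connexins, since these are distributed by layer. The 6 basal markers summed to 6632 to 9899 FPKM in CTR papillomas and to 12954, 8943 and 6846 in TG 1 to 3. The 6 suprabasal markers summed to 6883 to 10248 FPKM in CTR and to 11014, 11497 and 4055 in TG 1 to 3. Thus TG 1 and TG 2 were above and TG 3 was below all CTR papillomas in the suprabasal sum. The keratins *Krt1* and *Krt10* of the spinous layer made up the excess in TG 1 and TG 2, and *Krt10* was 917 to 1440 FPKM in CTR and 3150, 3133 and 181.3 in TG 1 to 3. The list was not uniform, since *Krtdap*, its most abundant gene in CTR papillomas, was 3841 to 6890 FPKM in CTR and 4770, 3666 and 2689 in TG 1 to 3 (log2 difference -0.49). The 8 markers of hyperproliferative epidermis summed to 23080 to 26940 FPKM in CTR and to 36815, 29920 and 21227 in TG 1 to 3. The 5 granular and cornified markers summed to 1317 to 2139 FPKM in CTR and to 2559, 1349 and 762.7 in TG 1 to 3. *Ivl*, an early protein of the cornified envelope, was the only gene among them with an unadjusted p under 0.05, with 17.7 to 26.8 FPKM in CTR and 159.0, 107.6 and 36.4 in TG 1 to 3 (log2 difference 2.01, adjusted p = 0.538 from limma). In the suprabasal and hyperproliferative sums, as in *Gja1*, *Gjb5* and *Gjb6*, TG 1 and TG 2 were above all CTR papillomas, and the part of layer composition in the connexin values was not tested.

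By limma 0 genes of any marker list passed the adjusted threshold. Unadjusted p-values under 0.05, all for higher levels in TG papillomas, were found for 1 of 6 basal, 0 of 6 suprabasal, 1 of 5 granular, 3 of 8 hyperproliferative, 1 of 6 fibroblast, 1 of 4 endothelial, 0 of 6 skeletal muscle, 0 of 2 adipocyte, 0 of 4 immune and 1 of 3 smooth muscle genes tested. Among all tested genes 4.86% were higher at such a p. The summed immune markers were 26.5 to 36.4 FPKM in CTR and 23.6, 23.9 and 81.5 in TG 1 to 3. Those of smooth muscle and pericytes were 11.5 to 20.7 FPKM in CTR and 26.7, 12.6 and 64.8 in TG 1 to 3. Those of adipocytes were 1374 to 3228 FPKM in CTR and 1545, 2269 and 1711 in TG 1 to 3, nearly all of it *Fabp4*. The other 4 adipocyte markers were highest in TG 3, with 26.0 FPKM for *Cfd* and 3.34 for *Adipoq*.

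The pattern of each gene over the 7 papillomas was last set beside those of the other 12298 tested genes, by the root mean square (RMS) difference of log2(FPKM + 0.5) after centering each gene on its mean. This is a description over 7 papillomas that share depth and composition, and it carries no p. For *Gja1* *Mxi1* (RMS difference 0.11) and *Gpr157* (0.11) were among the likest genes. For *Gjb2* they were *E2f7* (0.17), *Sema6d* (0.18) and *Sprr2h* (0.18), the last a small proline-rich protein of the cornified envelope. For *Gjb5* they were *Trex1* (0.16), *Cd207* (0.18), which marks Langerhans cells, and *Gast* (0.19), and for *Gjb6* they included *Smtnl2* (0.15) and *Nxph4* (0.19). In the order of likeness to *Gjb5*, *Gja1* came at place 479, *Gjb6* at 1162 and *Gjb2* at 4567. The genes likest to *Gjb6* had *Gjb2* at place 29 (0.37) and *Gja1* at place 36 (0.38). Seen from the other side, *Gjb6* came only at place 244 for *Gjb2* and at place 1505 for *Gja1*.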

How the data were processed

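The RNA-seq data cover 7 papillomas (4 CTR, 3 TG), each of a separate mouse, whose groups and replicate numbers come from the labels. Stranded polyA+ libraries were read for 40 bases from a single end and mapped by the authors to GRCm38/mm10 with TopHat2 2.0.4, Bowtie 0.12.7 and SAMtools 0.1.16. FPKM per gene, with an interval and a status, were estimated by the authors for every library alone with Cufflinks 1.3.0 and deposited without read numbers. The depth, between 10077008 and 15711400 reads on genes, was inferred from the width of these intervals and is approximate. Intervals cover counting error only. The submitters' notes also name FastQC.

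Entries of the same symbol were summed (240 symbols at more than 1 locus), and 162 symbols with a failed estimate in any papilloma were left out. The 12299 genes whose FPKM averaged 0.5 or more across papillomas were fitted with limma 3.58.1 in R 4.3.3 on log2(FPKM + 0.5) with a mean-variance trend, 2-sided, with Benjamini-Hochberg adjustment and a threshold of 0.05. Differences on this scale understate the change of low genes. Single genes and ratios were compared with exact permutation tests over 35 splits. Python 3.11.15 with numpy 2.4.6, pandas 2.3.3, scipy 1.17.1 and matplotlib 3.10.9 was used. The fit was tested on simulated data. Cuffdiff was not run, since it starts from aligned reads.

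The connexins, the lists and the tests were chosen with earlier results of these data known. Named were the 4 genes, every other connexin or pannexin above the minimum, the 3 partners with the smallest p, the 3 genes likest to each of the 4, and *Nanog*. Genes of the marker lists (basal, suprabasal, granular and cornified, hyperproliferative, fibroblast, endothelium, skeletal muscle, adipocyte, immune, smooth muscle and pericyte) were named after their values were seen. *Flg* was not used in its list. Some genes that the rule names are not reported here.

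19 alternatives per gene were run, on pseudocount, filter, scaling, trend, sample weights, replicate block, symbol entries, depth and left-out papillomas. Sequences came from RefSeq (GRCm38.p6), and gene positions from GENCODE on GRCm38.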

Additional observations from a re-analysis of the deposited data

Results flagged for a closer look

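*Nanog* in CTR 3, at 12.7 FPKM, was far from the other CTR papillomas, which had 2.70, 2.84 and 3.34 FPKM. The gap to the nearest of them was 0.936 of the whole CTR range, beyond Dixon's critical value for 4 samples. A gap beyond that critical value is reached by chance in about 5% of groups, and 11 genes were examined in this way. None of the 10 tested connexin and pannexin genes had such a papilloma among the CTR group. CTR 3 stayed below every TG papilloma, and leaving it out gave differences of 0.37 for *Gja1*, 0.45 for *Gjb2*, 0.77 for *Gjb5* and 0.80 for *Gjb6*.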

How the results depend on the processing

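The differences of the 4 connexins were above 0 in all 19 alternatives run for each, and none passed the adjusted threshold in any. These alternatives are not independent. Changing the filter, the trend or the symbol entries left the 4 differences as they were. The replicate block, in which CTR 4 has no TG partner, gave the same differences as leaving out CTR 4. They ranged from 0.26 to 0.76 for *Gja1*, 0.14 to 0.67 for *Gjb2*, 0.43 to 1.25 for *Gjb5* and 0.53 to 1.37 for *Gjb6*, with adjusted p from limma of 0.104 to 0.999, 0.527 to 1.00, 0.170 to 0.999 and 0.103 to 0.999. With a papilloma left out at a time they ranged from 0.31 to 0.76, 0.14 to 0.67, 0.43 to 1.25 and 0.61 to 1.37, highest without TG 3 for all 4. The count of genes higher in TG was 0 (598 at an unadjusted p under 0.05 by limma) and that of genes lower was 0 (241 unadjusted). With sample quality weights 49 genes were higher and 36 lower, none of them a connexin. With these weights 1161 of 12299 genes were higher and 1248 lower at an unadjusted p under 0.05 by limma. The weighted difference was 0.71 for *Gja1* (unadjusted p = 0.00487, adjusted p = 0.104 from limma) and 0.34 for *Gjb2* (0.233 and 0.527). It was 0.96 for *Gjb5* (0.0194 and 0.170) and 1.09 for *Gjb6* (0.00475 and 0.103). With a papilloma left out the counts were 0 to 9 higher and 0 to 8 lower, namely 9 higher and 8 lower without TG 3, 2 higher without TG 1 and 1 higher without CTR 3, and the cause was not tested. In the papillomas of lower inferred depth 1 gene was higher. There, 0 of the 6 pairs differed in level, where 5 did before, because 5 papillomas allow no exact permutation p below 0.0625. No ratio differed between the groups in the 10 alternatives run for the ratios. With papillomas left out, the exact permutation p of a ratio could not fall below 0.0667. Only the changes of pseudocount could therefore have shown a difference. Scaling to epithelial genes moved the median difference of all genes from 0.06 to -0.07, and leaving out TG 1 moved it to 0.13. At an unadjusted p under 0.05, 310 genes were then higher and 463 lower with epithelial scaling, and 403 higher and 551 lower with quantile normalization. With the replicate block 0 genes passed in either direction, and the differences were 0.55 for *Gja1*, 0.58 for *Gjb2*, 0.93 for *Gjb5* and 1.06 for *Gjb6* (adjusted p = 0.776 from limma). Same-numbered papillomas did not deviate together (correlations of deviations across genes -0.186, 0.043 and -0.146). The labels state no pairing by number, and so few correlations cannot exclude one. Depth limited only the low connexins, such as *Gjb5* with 48.0 inferred reads in CTR 1.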

Other observations

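The connexin and pannexin genes below the expression minimum were mostly near 0. *Gja5*, a connexin of arterial endothelium and atrial muscle, was 0.180 to 0.365 FPKM in CTR papillomas and 0.352, 0.305 and 1.38 in TG 1 to 3. *Gjc3* was 0.287 to 0.412 FPKM in CTR papillomas and 0.369, 0.484 and 0.824 in TG 1 to 3. *Panx3*, a pannexin of the skeleton and skin, was listed at 0 in 6 papillomas and at 0.807 FPKM in TG 3. *Gja10* and *Gjd2* were listed at 0 in all 7. Between 12 and 15 of the 20 listed connexin genes were above 0 in a papilloma.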
